A study of Musculus with 2 samples.

Results

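The 10 genes described here encode the enzymes that build and break down prostanoids: the cyclooxygenases Ptgs1 and Ptgs2, the terminal synthases Ptges, Ptges2, Ptges3, Ptgis, Ptgds, Hpgds and Tbxas1, and the degrading enzyme Hpgd. They were taken by symbol from the 32285 genes of the deposited matrices, and all 10 were found. The list is one of gene names, but it was chosen with earlier results of these data known. The cells came from the stromal vascular fraction of subcutaneous white adipose tissue (sWAT), the cells left once collagenase digestion and centrifugation have removed mature adipocytes. Single-cell RNA was read with the 10x Genomics droplet method in 1 LPCAT3-AKO library (genotype LPCAT3 knockout) and 1 control library (genotype WT). LPCAT3 is an acyltransferase that places polyunsaturated fatty acids, arachidonic acid among them, into phospholipids. The age is uncertain, since the sample labels say 5 weeks and the series' own text 2 months. The sources used here do not give the number of mice per library, the exons deleted, what drives the deletion or any treatment. The question was which cells of the fraction carry the transcripts of which enzyme, and whether the 2 libraries differ.

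Prostanoids are short-lived lipid signals made from arachidonic acid. A cyclooxygenase turns the acid into prostaglandin H2, and a terminal synthase then sets the product: prostaglandin E2, prostaglandin D2, prostacyclin or thromboxane. The signal ends when 15-hydroxyprostaglandin dehydrogenase, the product of Hpgd, oxidises the prostaglandin. In adipose tissue, prostaglandin E2 is known for restraining lipolysis, and prostacyclin and the cyclopentenone derivatives of prostaglandin D2 for acting on fat cell precursors. Transcript levels show which enzymes a cell can make, and no prostanoid was measured.

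The LPCAT3-AKO library held 12806 barcodes with a median of 8361 UMIs (unique molecular identifiers, one per captured transcript), and the control library 13831 barcodes with a median of 7758 UMIs. After filtering and doublet removal 10576 LPCAT3-AKO and 11191 control cells remained, of which 89.1% and 90.4% passed a marker gate for 1 cell class and no other. The compared classes were fibroblasts (5654 LPCAT3-AKO and 5493 control cells), macrophages (2857 and 3823), dendritic cells (236 and 254), blood vessel endothelial cells (174 and 164), mast cells (58 and 68) and epithelial cells (228 and 106), with T cells (113 and 96) and NK cells (52 and 74) beside them. Class names rest on markers alone. Levels are given in CPM, the UMIs of a gene per 1000000 UMIs of all genes in that class and library. The fibroblast list summed to 48137 and 43259 CPM in fibroblasts and the macrophage list to 19216 and 19942 in macrophages, with all 14 markers of each list detected. The epithelial cells were luminal, with all but 1 control cell carrying luminal markers. In the mast gate Cma1, a protease of connective tissue mast cells, was at 30012 and 34002 CPM. The basophil protease Mcpt8 had 0 UMIs there in both libraries. Prss34, also listed as a basophil marker, had 65 and 85 UMIs (576 and 680 CPM), and whether the gate holds some basophils was not tested. Median depth was 9189 and 9462 UMIs in fibroblasts, 8013 and 6419 in macrophages and 1784 and 1783 in mast cells. The libraries shared 58 barcodes, 43 among the kept LPCAT3-AKO and 51 among the kept control cells, and without these cells every class level and every ratio of a measured member stayed within its counting interval.

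CPM values carry exact Poisson 95% intervals. With 1 library per genotype there are no replicates and no test. All intervals cover counting error only, and the spread between mice is unknown. A change between libraries was called by size, below named the size rule: the higher library had to reach 20 CPM, the ratio had to be at least 1.5-fold in either direction, and its counting interval had to exclude 1. Lpcat3 itself was at 29.4 CPM in LPCAT3-AKO and 27.0 CPM in control fibroblasts, and at 22.9 and 21.1 CPM in macrophages. The sequenced tag may come from an undeleted stretch of the transcript, and these levels are therefore no check of the deletion.

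The cyclooxygenases had different cells. Ptgs1, the constitutive cyclooxygenase, was spread over endothelial cells, macrophages and fibroblasts, while Ptgs2, the inducible one and a known immediate-early gene, was highest in fibroblasts and next in macrophages and dendritic cells. Ptgs1 stood at 80.6 CPM (67.7 to 95.3) in LPCAT3-AKO and 78.5 CPM (65.3 to 93.5) in control endothelial cells, on 138 and 124 UMIs. In macrophages it stood at 60.7 CPM in the LPCAT3-AKO and 60.3 CPM in the control library, and in fibroblasts at 46.0 and 49.1 CPM. The order endothelial, macrophage, fibroblast was the same in both libraries, with intervals that did not overlap between neighbours. In the endothelial gate the list of mural (vessel wall) markers summed to 1346 and 1432 CPM, with all 9 markers detected. Its part in the endothelial Ptgs1 level was not tested. Dendritic and epithelial cells held little of it: 3.95 and 0.515 CPM in dendritic cells, and 1.66 and 2.08 CPM in epithelial cells. Because fibroblasts were far more numerous than endothelial cells, they held 53.2% of all LPCAT3-AKO and 55.5% of all control Ptgs1 UMIs.

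Ptgs2 reached 524.8 CPM (518.7 to 531.0) in LPCAT3-AKO fibroblasts and 723.5 CPM (716.2 to 730.8) in control fibroblasts. Macrophages had 217.8 CPM (212.1 to 223.6) in the LPCAT3-AKO and 214.2 CPM (208.7 to 219.8) in the control library, and dendritic cells 229.9 CPM (209.4 to 251.7) and 185.0 CPM (166.4 to 205.2). Fibroblasts were thus 2.28 times the next class in the LPCAT3-AKO library and 3.38 times in the control library, and the intervals of macrophages and dendritic cells overlapped in the LPCAT3-AKO library and not in the control library. Endothelial cells, where Ptgs1 led, had 11.7 and 10.1 CPM of Ptgs2. Droplets also carry free RNA, which gives every cell type a low level of abundant transcripts. The endothelial Ptgs2 level was 2.23% and 1.40% of the fibroblast level, beside a median of 1.46% and 1.56% for the fibroblast markers in the same cells, so it was read as background. The macrophage level was 41.5% and 29.6% of the fibroblast level, against marker medians of 1.67% and 1.91%, and the dendritic level 43.8% and 25.6%, against 1.22% and 1.35%. At least 1 Ptgs2 UMI was seen in 38.3% of LPCAT3-AKO and 51.6% of control fibroblasts, and in 10.9% and 9.76% of endothelial cells. With every cell thinned to 2000 UMIs these shares were 25.1% and 34.7% of fibroblasts and 2.94% and 2.5% of endothelial cells.

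**Figure D1:**
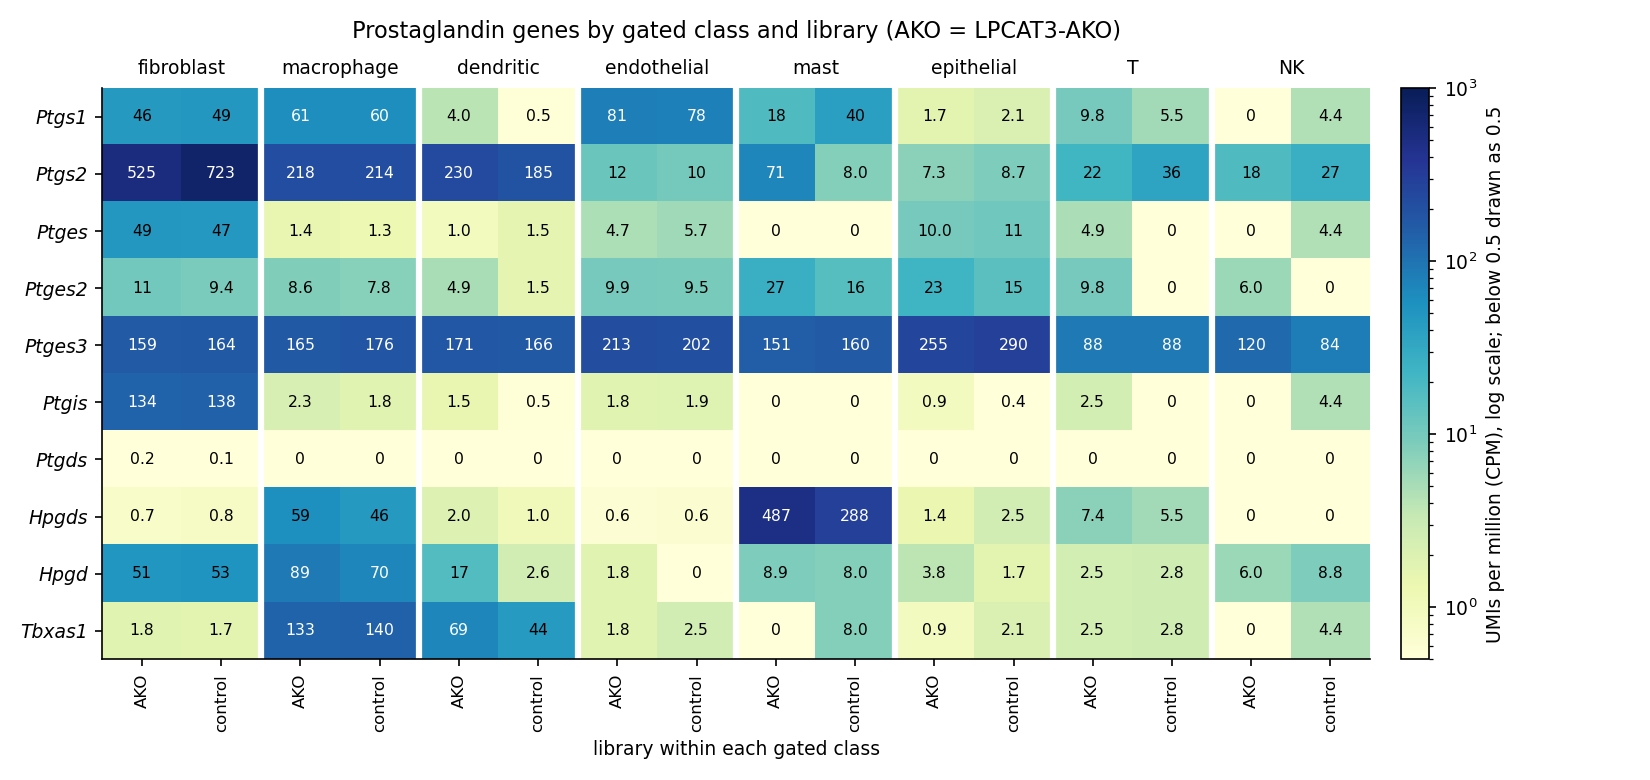
Level of each member in CPM (log colour scale, values printed, values below 0.5 drawn as 0.5) in the 8 compared classes, with the LPCAT3-AKO library left of the control library in each class. Ptges and Ptgis stand out in fibroblasts, Hpgds in mast cells and macrophages, Tbxas1 in macrophages and dendritic cells, and Ptges3 is present in every class.

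The terminal synthases of prostaglandin E2 fell into a fibroblast gene and 2 widely spread ones. Ptges, the inducible microsomal synthase, had 48.7 CPM (46.9 to 50.7) in LPCAT3-AKO and 47.1 CPM (45.2 to 49.0) in control fibroblasts. Epithelial cells came next at 9.99 and 10.8 CPM, and macrophages had 1.44 and 1.28 CPM. The epithelial level was 20.5% and 23.0% of the fibroblast level, above the range of the fibroblast markers in those cells (0.552% to 3.04% in the LPCAT3-AKO library and 0.358% to 2.04% in the control library). Fibroblasts held 93.0% of all LPCAT3-AKO and 96.0% of all control Ptges UMIs. Ptges3, a co-chaperone of Hsp90 that also has cytosolic prostaglandin E synthase activity, was present in every class, from 88.3 CPM in T cells to 255 CPM in epithelial cells of the LPCAT3-AKO library and from 84.0 CPM in NK cells to 290 CPM in epithelial cells of the control library. Ptges2, a second membrane-associated synthase, stayed between 4.94 and 26.6 CPM in the LPCAT3-AKO and between 0 and 16 CPM in the control library. The top of that LPCAT3-AKO range was mast cells, on 3 UMIs, and epithelial cells had 23.5 CPM (19.9 to 27.5) and 15.0 CPM (10.5 to 20.8).

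Ptgis, prostacyclin synthase, was almost confined to fibroblasts among the 8 classes. It had 133.7 CPM (130.6 to 136.8) in LPCAT3-AKO and 138.5 CPM (135.3 to 141.7) in control fibroblasts, and was seen in 58.3% and 61.7% of them. No other class exceeded 2.45 CPM in the LPCAT3-AKO or 4.42 CPM in the control library. Endothelial cells, a textbook source of prostacyclin in large vessels, had 1.75 and 1.90 CPM, which was 1.31% and 1.37% of the fibroblast level below the medians of the fibroblast markers in those cells (1.46% and 1.56%). Macrophage Ptgis, at 2.26 and 1.76 CPM, was likewise 1.69% and 1.27% of the fibroblast level, inside or below the marker range. Fibroblasts held 97.4% and 98.4% of all Ptgis UMIs.

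The prostaglandin D2 synthases split between absent and immune. Ptgds, the lipocalin-type synthase, had 9 UMIs in LPCAT3-AKO and 3 UMIs in control fibroblasts (0.168 and 0.0578 CPM) and 0 UMIs in every other compared class. A count of 0 allows up to 0.117 CPM in LPCAT3-AKO and 0.113 CPM in control macrophages. In mast cells, where few UMIs were read, it allows up to 26.6 and 24 CPM. Hpgds, the haematopoietic synthase, was highest per UMI in mast cells, at 487 CPM (367 to 634; 55 UMIs) in the LPCAT3-AKO and 288 CPM (202 to 399; 36 UMIs) in the control library. Macrophages had 59.0 CPM (56.1 to 62.1) and 46.1 CPM (43.6 to 48.7), and the remaining classes at most 7.36 and 5.51 CPM. Mast cells are few, so macrophages held 90.2% of LPCAT3-AKO and 90% of control Hpgds UMIs, and mast cells 3.3% and 2.6%.

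Tbxas1, thromboxane synthase, was a gene of macrophages and dendritic cells here. It had 132.8 CPM (128.4 to 137.4) in LPCAT3-AKO and 140.4 CPM (135.9 to 144.9) in control macrophages, and was seen in 60.8% and 54.5% of them. Dendritic cells had 69.2 CPM (58.2 to 81.7) in the LPCAT3-AKO and 44.3 CPM (35.5 to 54.7) in the control library. Fibroblasts had 1.79 and 1.66 CPM, or 1.35% and 1.18% of the macrophage level, close to the macrophage markers in those cells (medians 0.936% and 0.956%). Platelets, the best known source of thromboxane, were not among the gated classes.

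Hpgd, which inactivates prostaglandins, was shared by macrophages and fibroblasts. Macrophages had 89.3 CPM (85.7 to 93.0) in the LPCAT3-AKO and 70.3 CPM (67.1 to 73.5) in the control library, and fibroblasts 51.3 CPM (49.4 to 53.3) and 52.6 CPM (50.7 to 54.6). The classes without it included endothelial cells, with 3 and 0 UMIs. Dendritic cells had 34 UMIs in the LPCAT3-AKO library, or 16.8 CPM (11.6 to 23.5), against 5 UMIs in the control library, or 2.58 CPM (0.837 to 6.01). Fibroblasts held 51.1% of LPCAT3-AKO and 57.6% of control Hpgd UMIs, and macrophages 42.6% and 39.5%.

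A gene was counted as concentrated when its top class reached at least 4 times the next of the 8 classes in each library, with the same top class in both. Of the 9 members at 20 CPM or more in some class, 3 met this, while 12.3% of all 10716 genes at that level did (1322 genes). They were Ptgis in fibroblasts (54.5 times the next class in the LPCAT3-AKO and 31.3 times in the control library), Hpgds in mast cells (8.26 and 6.25 times) and Ptges in fibroblasts (4.88 and 4.35 times). Under the stricter gate or with each cell weighted alike Ptges no longer met it and 2 members did, with control levels of 47.3 CPM in fibroblasts and 11.9 CPM in epithelial cells under that gate. The next members by this measure were Tbxas1 in macrophages (1.92 and 3.17 times) and Ptgs2 in fibroblasts (2.28 and 3.38 times). Read along the pathway, the fibroblasts of both libraries thus carried Ptgs1, Ptgs2, Ptges, Ptgis and Hpgd. The macrophages carried Ptgs1, Ptgs2, Tbxas1, Hpgds and Hpgd, the mast cells Hpgds, and the endothelial cells Ptgs1. Ptges3 was present in all of these classes. In mast cells too few UMIs were read to say whether Ptgs1 and Ptgs2 are carried. Ptges2 was low throughout, in endothelial cells at 9.93 and 9.49 CPM on 17 and 15 UMIs. Endothelial Ptges, at 4.67 and 5.69 CPM on 8 and 9 UMIs, was 9.59% and 12.1% of the fibroblast level. This lay inside the range of the fibroblast markers in those cells (0.80% to 23.3% and 0.678% to 24%) but above their medians (1.46% and 1.56%). Background and a level of the cells' own cannot be told apart there.

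The fibroblasts were divided further by markers into interstitial progenitor-like cells (Dpp4, Pi16 and 8 others), which lie upstream in the fat cell lineage, and committed preadipocyte-like cells (Icam1, Pparg, Fabp4 and 7 others). Interstitial progenitors made up 57.8% of LPCAT3-AKO and 69.7% of control fibroblasts, and committed preadipocytes 20.7% and 14.0%. The cyclooxygenases and prostacyclin synthase were unevenly shared between them, while Ptges and Hpgd differed by less than 1.5-fold. Of the 6 members measured in this comparison, 3 were higher in interstitial progenitors by the size rule in both libraries and 0 lower, against 11.4% of all genes higher and 11.7% lower.

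Ptgs2 was the most uneven. Interstitial progenitors had 845 CPM (835 to 855) in the LPCAT3-AKO library and 947 CPM (937 to 957) in the control library, while committed preadipocytes had 18.7 CPM (16.1 to 21.5) and 37.1 CPM (32.7 to 42.0). These are ratios of 45.3 in the LPCAT3-AKO and 25.5 in the control library, and 93.1% and 92.3% of the fibroblast Ptgs2 UMIs lay in interstitial progenitors. The committed level was 2.21% and 3.92% of the interstitial one, inside the range of the 10 interstitial markers in the same cells (1.31% to 25.7% and 0.616% to 14.9%, medians 5.28% and 3.79%). The same markers set the sub-gates and their range is wide, so background and the cells' own Ptgs2 cannot be told apart there. The size of the ratio depends on the background. Ptgs1 followed with 71.1 and 65.0 CPM in interstitial progenitors against 6.32 and 5.35 CPM in committed preadipocytes, ratios of 11.3 and 12.2. Its committed level, 8.88% and 8.23% of the interstitial one, also lay inside the marker range but above the marker medians. Background and a level of the cells' own cannot be told apart for Ptgs1 either. Both cyclooxygenases therefore peaked in the same sub-gate of both libraries. Ptgis had 160 and 163 CPM in interstitial progenitors against 62.5 and 36.7 CPM in committed preadipocytes, ratios of 2.57 and 4.45. Ptges was nearly level, with 45.3 and 45.5 CPM in interstitial progenitors and 48.3 and 41.3 CPM in committed preadipocytes, as was Hpgd, with 50.5 and 53.5 CPM against 52.6 and 40.7 CPM. Committed preadipocytes thus held the prostaglandin E2 synthase and the dehydrogenase at the level of the progenitors, with cyclooxygenase transcripts inside the background range. The cells of the third sub-gate, F3-high, numbered 87 and 41 and had Ptgs2 at 23.9 and 60.3 CPM.

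**Figure D2:**
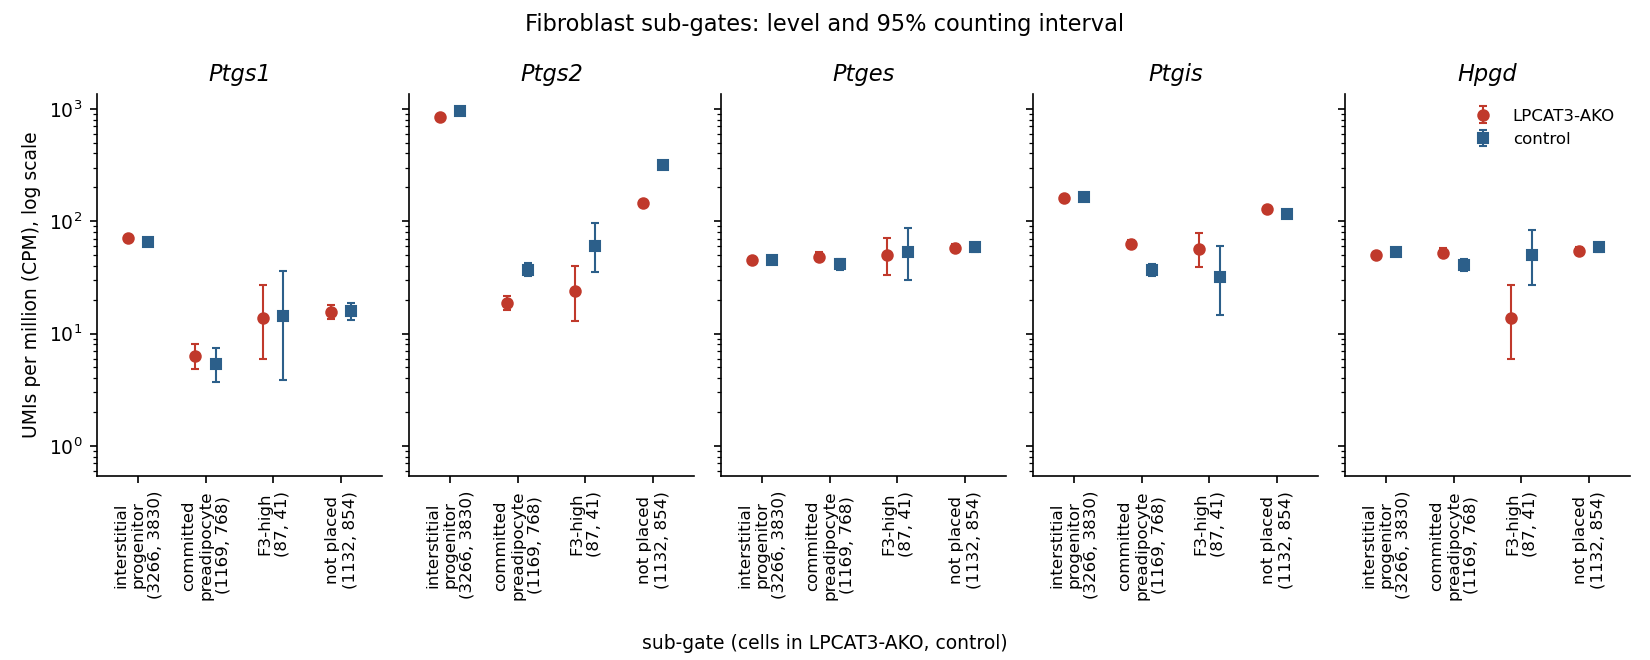
Level of the fibroblast members in CPM on a log axis in the fibroblast sub-gates, with red circles for the LPCAT3-AKO library left of blue squares for the control library and bars for 95% counting intervals. Ptgs1 and Ptgs2 are high in interstitial progenitors and low in committed preadipocytes, whereas Ptges and Hpgd lie at about 40 to 60 CPM in both.

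Macrophages were divided into resident-like (Lyve1, Folr2 and 7 others; 74.8% of LPCAT3-AKO and 79.9% of control macrophages) and Lyve1-negative cells (Lyz1, Retnla and 6 others; 176 and 282 cells). The sub-gates differed in which enzymes they carried. Of 6 measured members, 2 were higher in resident cells in both libraries and 1 was lower, against 21.8% of all genes higher and 11.1% lower. Hpgds was at 79.6 CPM in LPCAT3-AKO and 57.7 CPM in control resident macrophages, and had 2 and 3 UMIs in Lyve1-negative cells (1.03 and 1.16 CPM). The ratios, 77.2 (21.3 to 638) in the LPCAT3-AKO and 49.6 (16.9 to 241) in the control library, have wide intervals for that reason, and the Lyve1-negative level, 1.30% and 2.02% of the resident one, was inside the range of the resident markers in those cells (0.324% to 27.4% and 0.361% to 25.6%). Hpgd was at 115 and 84.9 CPM in resident against 23.2 and 12.4 CPM in Lyve1-negative cells. The Lyve1-negative Hpgd level, 20.3% and 14.6% of the resident one, was inside the same marker range. Ptgs2 went the other way: resident cells had 74.5 and 89.0 CPM, Lyve1-negative cells 782 and 757 CPM. Lyve1-negative cells were 6.16% and 7.38% of macrophages and held 27.1% and 34.2% of the macrophage Ptgs2 UMIs. Markers of other cells moved with this difference: the monocyte list was at 682 and 593 CPM in resident against 1508 and 1329 CPM in Lyve1-negative cells, with 2 of its 8 markers at 0 in resident and 3 in Lyve1-negative cells of each library, and the macrophage list at 22381 and 22503 against 7751 and 8083 CPM. Their part in the result was not tested. Tbxas1 (137 and 137 CPM in resident, 145 and 159 CPM in Lyve1-negative cells) and Ptgs1 (59.1 and 62.6 against 62.4 and 43.4 CPM) differed less. The resident cells also carried the Lyve1-negative marker list, at 14565 and 16497 CPM against 33928 and 36084 CPM in Lyve1-negative cells, so the sub-gates are not clean types. The 49 LPCAT3-AKO monocyte-like cells had 1433 CPM of Ptgs2 (1303 to 1572), and with 8 cells in the control library they were not compared.

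**Figure D3:**
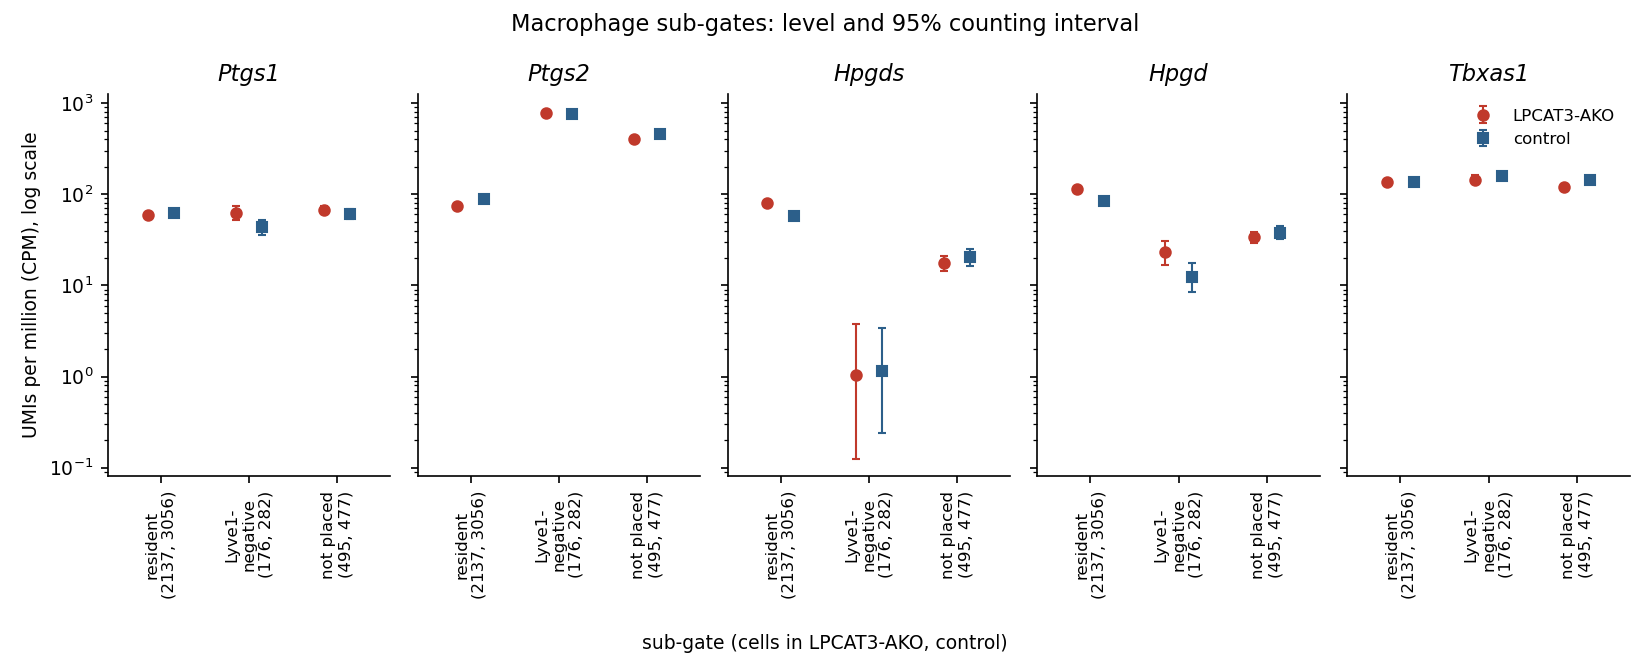
Level of the macrophage members in CPM on a log axis in the macrophage sub-gates, with red circles for the LPCAT3-AKO library left of blue squares for the control library and bars for 95% counting intervals. Hpgds and Hpgd are higher in resident cells and Ptgs2 in Lyve1-negative cells, while Tbxas1 is similar in both.

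Among dendritic cells, type 2-like cells (Cd209a, Sirpa and others; 102 and 76 cells) had 416 CPM of Ptgs2 (375 to 462) in the LPCAT3-AKO and 234 CPM (195 to 278) in the control library. Type 1-like cells (Xcr1, Clec9a and others; 111 and 128 cells) had 50.6 and 37.9 CPM. Ptgs2 was the 1 of 4 measured members that was higher in type 2 than in type 1 cells in both libraries, with ratios of 8.24 and 6.17, and 0 were lower, against 9.21% of all genes higher and 6.33% lower. The macrophage marker list moved with this difference: it summed to 2519 and 2115 CPM in type 2 and to 922 and 841 CPM in type 1 cells, with all 14 markers detected in each, and its part in the result was not tested. Tbxas1 was at 68.8 and 60.6 CPM in type 1 and at 70.2 and 27.4 CPM in type 2 cells. The mature dendritic cells (Ccr7 and others), 9 and 24 in number, had 641 CPM of Ptgs2 (453 to 879) and 436 CPM (339 to 551), and 0 UMIs of Tbxas1 in both libraries, which allows up to 50.6 and 18.9 CPM.

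Within interstitial progenitors, Ptgs2 was not evenly spread over cells. In cells thinned to 5000 UMIs, 50.7% of LPCAT3-AKO and 57.8% of control interstitial progenitors had a Ptgs2 UMI, and the top 10% of cells held 53.9% and 48.2% of the Ptgs2 UMIs. The thinned cells were then placed in 4 bins by their summed UMIs of 12 other immediate-early genes such as Fos, Jun and Egr1, with the limits of the bins set over both libraries together. Ptgs2 was low in the bin with the fewest such UMIs and high in the others, in both libraries. From the lowest to the highest bin it stood at 53.5, 852, 1375 and 1292 CPM in the LPCAT3-AKO library and at 39.3, 744, 1378 and 1397 CPM in the control library. Tissue digestion is known to induce immediate-early genes, and how much of the level was set during preparation was not tested. The other members varied less along the same bins: Ptgs1 ranged over 59.3 to 83.1 CPM in the LPCAT3-AKO and 60.4 to 69.3 CPM in the control library, Ptges over 41.3 to 47.0 and 37.5 to 56.9 CPM, Ptgis over 138 to 171 and 145 to 185 CPM, and Hpgd over 47.0 to 50.6 and 43.6 to 58.2 CPM. Macrophages as a whole ran the other way. There Ptgs2 had 313 CPM in the lowest and 127 CPM in the highest bin of the LPCAT3-AKO library, and 305 and 101 CPM in the control library. Within resident macrophages alone the lowest and highest bins had 43.3 and 102.7 CPM in the LPCAT3-AKO library and 57.8 and 97.8 CPM in the control library.

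**Figure D4:**
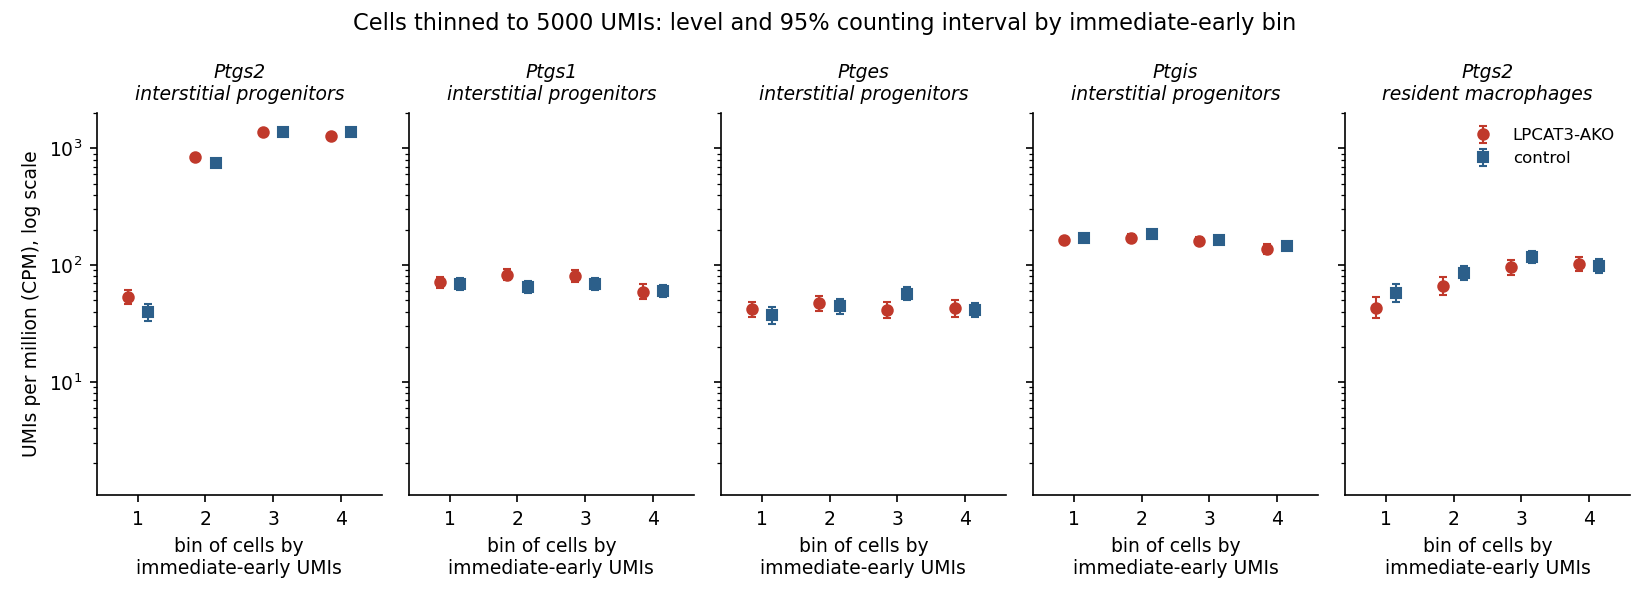
Level in CPM on a log axis, with 95% counting intervals, of Ptgs2, Ptgs1, Ptges and Ptgis in interstitial progenitors and of Ptgs2 in resident macrophages, in 4 bins of cells from fewest to most UMIs of 12 other immediate-early genes at 5000 UMIs per cell, with red circles for the LPCAT3-AKO library left of blue squares for the control library. In interstitial progenitors Ptgs2 has 53.5 and 39.3 CPM in the lowest bin and lies between 744 and 1397 CPM in the other 3, while the other members vary less.

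Interstitial progenitors with a Ptgs2 UMI carried the partner enzymes about as often as those without. Ptges was seen in 18.7% of LPCAT3-AKO cells with Ptgs2 and 18.9% without, and in 21.0% and 18.3% of control cells. Ptgis was seen in 52.5% of LPCAT3-AKO cells with and 52.5% without Ptgs2, and in 53.8% and 53.6% of control cells. The intervals of each pair overlapped in both libraries. Over macrophages, Hpgds was seen in 14.1% of LPCAT3-AKO cells with and 25.3% without Ptgs2, and in 15.2% and 19.9% of control cells. Within resident macrophages these shares were 27.5% and 29.9% in the LPCAT3-AKO and 23.3% and 23.4% in the control library.

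Between the libraries, no member passed the size rule in fibroblasts (0 of 6 measured, beside 2.13% of all genes called), macrophages (0 of 6, beside 2.04%) or endothelial cells (0 of 2, beside 4.23%). The median log2 ratio of the measured members was -0.05 in fibroblasts, 0.02 in macrophages and 0.06 in endothelial cells, where the medians of all genes were -0.00, 0.04 and 0.02. The fibroblast difference in Ptgs2, 524.8 CPM in the LPCAT3-AKO against 723.5 CPM in the control library, was a ratio of 0.725 (0.714 to 0.737), short of 1.5-fold. The other 5 fibroblast members had ratios of 0.936 to 1.04. In the macrophages Hpgds had a ratio of 1.28 (1.19 to 1.38) and Hpgd one of 1.27 (1.2 to 1.35), both also short of 1.5-fold, and the other 4 had ratios of 0.938 to 1.02.

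Other quantities moved with the fibroblast Ptgs2 difference, and their part in it was not tested beyond the values given. The share of interstitial progenitors was 57.8% in LPCAT3-AKO against 69.7% in control fibroblasts, and with the sub-gates weighted alike the ratio was 0.849. The summed level of the 12 immediate-early genes was 13569 CPM in LPCAT3-AKO against 15779 CPM in control fibroblasts. In the fibroblasts whose immediate-early genes lay under the class median, Ptgs2 was at 62.2 CPM in the LPCAT3-AKO and 70.3 CPM in the control library. Within interstitial progenitors the ratio was 0.892 (0.878 to 0.906), and no member passed the size rule there (1.59% of all genes did). Fewer LPCAT3-AKO interstitial progenitors, 20% against 29.2% of the control ones, lay in the highest bin of immediate-early UMIs. An antisense transcript, Ptgs2os, was at 38.1 CPM in LPCAT3-AKO and 55.8 CPM in control fibroblasts, counted as a gene of its own. Strand-specific counting is not stated, and whether any of its reads were counted for Ptgs2 was not tested.

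In the fibroblasts other than interstitial progenitors, Ptgs2 passed the size rule as lower in the LPCAT3-AKO library. In committed preadipocytes it fell to 18.7 CPM in the LPCAT3-AKO library, against 37.1 CPM in the control library, a ratio of 0.502 (0.414 to 0.609), where 2.12% of all genes passed. Both levels were inside the marker range given above. T cells had similar levels, at 22.1 CPM in the LPCAT3-AKO and 35.8 CPM in the control library. So had NK cells, at 17.9 and 26.5 CPM. The T cell level was 4.20% and 4.95% of the fibroblast one, above the fibroblast markers in T cells (at most 3.64% and 4.14%). Whether the call is a difference in the committed preadipocytes' own Ptgs2 or in background was not tested. In fibroblasts that no sub-gate took, it was at 146 CPM in the LPCAT3-AKO against 317 CPM in the control library, a ratio of 0.460 (0.433 to 0.489; 2.6% of all genes passed). Those cells carried the interstitial marker list at 2930 and 3217 CPM and the committed list at 4045 and 2555 CPM, and the part of this mix in the result was not tested. The summed immediate-early genes were also lower in the LPCAT3-AKO library in each of these sub-gates, at 17071 against 18801 CPM in committed preadipocytes, 11562 against 14581 CPM in the cells not placed and 8383 against 11027 CPM in F3-high cells. Their part in the calls was not tested either. In F3-high cells Ptgs2 had a ratio of 0.396 (0.181 to 0.854) and Hpgd one of 0.275 (0.10 to 0.702), on 14 and 17 and on 8 and 14 UMIs, where 6.54% of all genes passed. The F3-high Ptgs2 level was 2.83% and 6.37% of the interstitial one. This lay inside the range of the interstitial markers in those cells (1.42% to 20.1% and 0 to 15.9%). So wide a range, from markers that also set the sub-gates, cannot separate background from the cells' own Ptgs2. The source of this Ptgs2 call was not tested. The 14 control Hpgd UMIs lay in 7.32% of the 41 cells. Ptgis was the 1 member that was higher in LPCAT3-AKO committed preadipocytes, at 62.5 CPM (57.7 to 67.5) against 36.7 CPM (32.3 to 41.6) in control ones, a ratio of 1.70 (1.47 to 1.98). The interstitial marker list was at 362 and 369 CPM in these cells and the macrophage list at 420 and 334 CPM.

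Among macrophage sub-gates, no member passed in resident cells, where 2.33% of all genes did and Hpgds had a ratio of 1.38 (1.28 to 1.49). In Lyve1-negative cells Hpgd passed, at 23.2 CPM in the LPCAT3-AKO against 12.4 CPM in the control library, a ratio of 1.87 (1.16 to 3.04) on 45 and 32 UMIs, where 5.8% of all genes passed. These levels were 20.3% and 14.6% of the resident ones. That is inside the range of the resident markers in those cells (0.324% to 27.4% and 0.361% to 25.6%) but above their medians (1.15% and 1.76%). A difference in background and one in the cells' own Hpgd cannot be told apart.

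**Figure D5:**
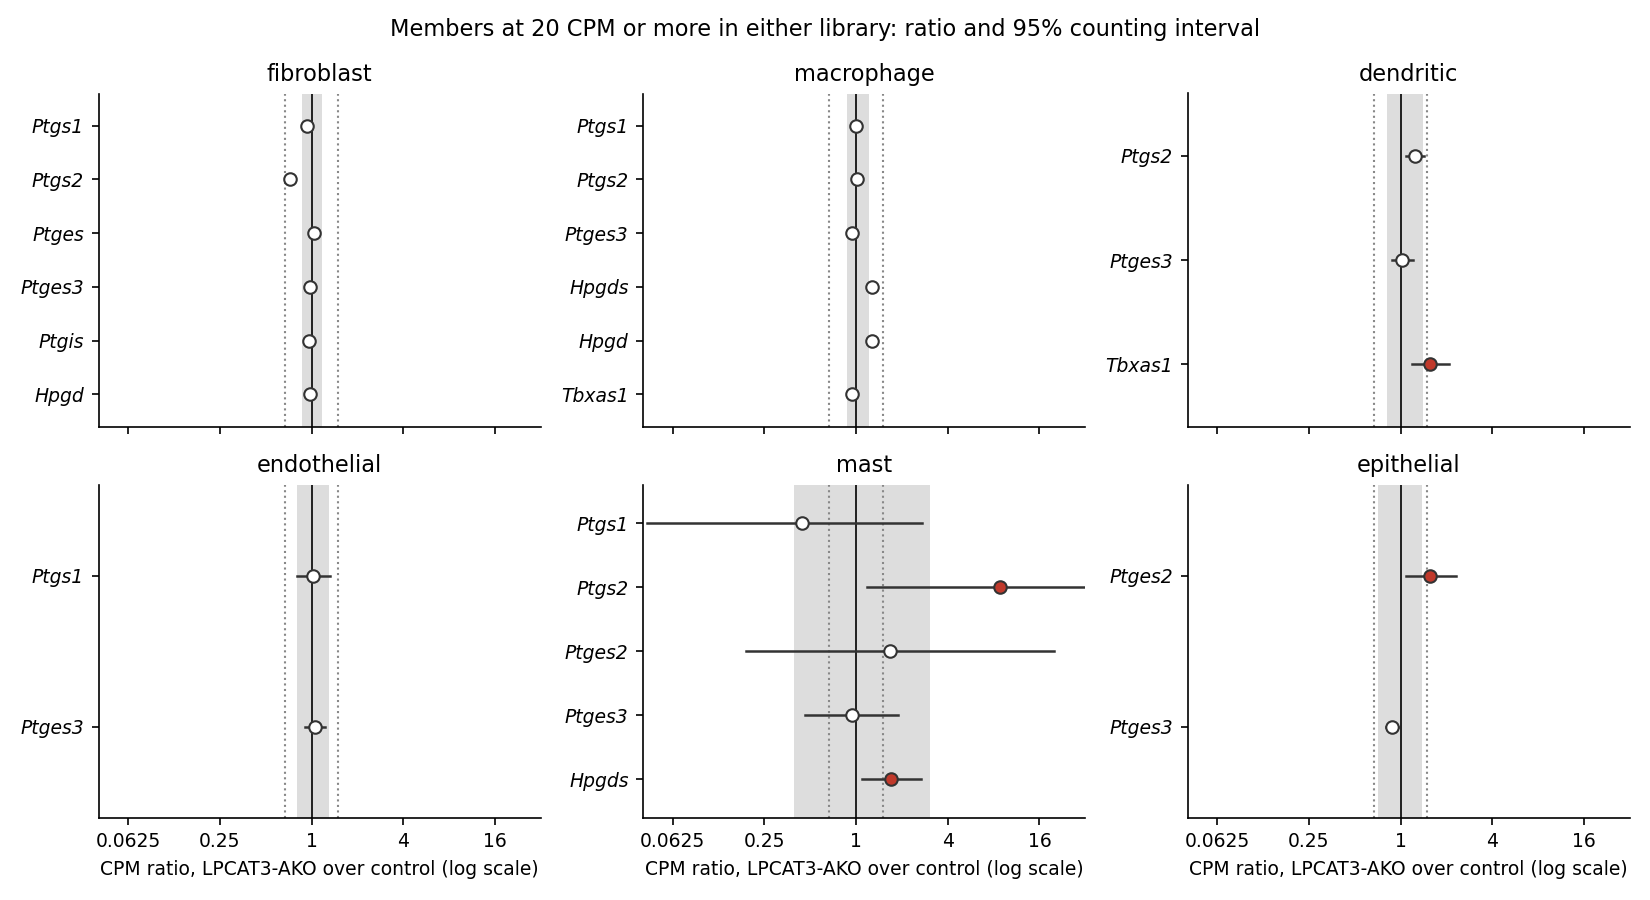
Ratio of LPCAT3-AKO over control CPM (log axis) for each measured member in 6 classes, with 95% counting intervals, the 10th to 90th percentile of all genes of the class as a grey band and dotted lines at 1.5 either way. Filled red points passed the size rule: Tbxas1 in dendritic, Ptgs2 and Hpgds in mast and Ptges2 in epithelial cells. The interval of mast cell Ptgs2 runs beyond the axis.

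The smaller classes gave 4 calls. In mast cells 2 of 5 measured members were higher in the LPCAT3-AKO library, where 2.44% of all genes were called higher. Hpgds had 55 UMIs in 58 LPCAT3-AKO cells and 36 UMIs in 68 control cells, a ratio of 1.69 (1.09 to 2.65). It was seen in 30 of the LPCAT3-AKO cells (51.7%) and 24 of the control cells (35.3%). Mast cell Ptgs2 had 8 UMIs in the LPCAT3-AKO and 1 UMI in the control library, a ratio of 8.86 (1.19 to 393). The level was 13.5% of the fibroblast one in the LPCAT3-AKO library, above the range of the fibroblast markers in those cells (0 to 6.55%), and 1.11% in the control library, inside it (0 to 8.50%). In the mast gate the fibroblast list summed to 1400 and 944 CPM, with 1 of 14 markers at 0 in each library, and the B cell list to 257 and 32 CPM, with 6 of 8 at 0 in each, and their part in the result was not tested. With doublets kept it had 8 and 4 UMIs, and without the cell filter 9 and 7 UMIs, and it then did not pass.

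In dendritic cells Tbxas1 was the 1 of 3 measured members that was higher, with a ratio of 1.56 (1.19 to 2.07), where 5.51% of all genes were called higher. Within type 2 cells it was at 70.2 CPM in the LPCAT3-AKO against 27.4 CPM in the control library, a ratio of 2.56 (1.44 to 4.85), and within type 1 cells, where 6.86% of all genes and no member passed, the ratio was 1.14 (0.795 to 1.62). Ptgs2 had a dendritic ratio of 1.24 (1.08 to 1.43), and within type 2 cells one of 1.78 (1.45 to 2.20), which passed together with Hpgd (26 and 3 UMIs, ratio 5.46, 1.67 to 28.2), beside 7.96% of all genes there. The dendritic gate was the softest, with 113 of 236 LPCAT3-AKO and 150 of 254 control cells within 1 marker of it, and the macrophage list stood at 1677 and 1237 CPM in the class. Under a stricter gate, which left 76 and 79 cells, Tbxas1 no longer passed, with a ratio of 1.45 (0.896 to 2.38). Ptgs2 turned to lower in the LPCAT3-AKO library under that gate, at 93.0 CPM against 167 CPM in the control library, a ratio of 0.557 (0.405 to 0.762).

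In epithelial cells Ptges2 was higher in the LPCAT3-AKO library, at 23.5 CPM against 15.0 CPM in the control library, a ratio of 1.56 (1.08 to 2.32), on 155 and 36 UMIs. It was 1 of 2 measured members, in a class where 7.19% of all genes were called higher. Immediate-early genes summed to 11095 CPM in LPCAT3-AKO and 4961 CPM in control epithelial cells, with 11 of the 12 past the size rule, and their part in the result was not tested. With doublets kept, the control library had 159 epithelial cells in place of 106, and Ptges2 had a ratio of 1.42 (1.06 to 1.91) and did not pass.

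Other genes of the pathway showed where the products could be sensed, moved and further converted. Of 9 prostanoid receptors, 3 reached 20 CPM in some class. Ptger4, a receptor for prostaglandin E2, was highest in dendritic cells, at 115 CPM in the LPCAT3-AKO and 151 CPM in the control library, and had 62.5 and 29.7 CPM in endothelial cells. That endothelial ratio, 2.10 (1.48 to 3.03), passed the size rule as the 1 of 9 listed receptors measured there, in a class where 2.71% of all genes were called higher. Ptger3, another prostaglandin E2 receptor, led in mast cells at 35.4 and 72.0 CPM, and Ptgir, the prostacyclin receptor, in T cells at 17.2 and 30.3 CPM. These 3 receptors thus had their highest CPM in classes other than the fibroblasts that held Ptges and Ptgis. In fibroblasts none of the 9 listed receptors reached 20 CPM. The mast cells held only 112854 and 124992 UMIs of all genes, and the T cells 407879 and 363028. The Ptger3 and Ptgir peaks therefore rest on few counts and are uncertain. The other listed receptors stayed below 20 CPM in every class, and this reading does not cover them. Slco2a1, the prostaglandin uptake transporter, was at 213 and 261 CPM in endothelial cells and at 187 and 283 CPM in epithelial cells, where its ratio of 0.660 (0.600 to 0.726) made it the 1 of 2 listed transport genes past the rule (6.93% of all genes were called lower there). The fibroblast level of Slco2a1 was 81.7 and 87.0 CPM.

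Of 5 genes that release arachidonic acid, 2 were measured in fibroblasts, 2 in macrophages, 1 each in endothelial, mast and epithelial cells and 0 in dendritic cells. None of those measured passed, beside 2.13% of all genes in fibroblasts, 2.04% in macrophages and 4.23% in endothelial cells. In mast cells 2.44% of all genes were called higher and 2.25% lower, and in epithelial cells 7.19% and 6.93%. Pla2g4a, the cytosolic phospholipase A2, had its top level in fibroblasts at 49.4 and 49.6 CPM, and Mgll, which frees arachidonic acid from a monoacylglycerol, in endothelial cells at 3077 and 2841 CPM. Of 10 other reductases and breakdown enzymes, none of the 7 measured in fibroblasts passed. Among them Akr1c18, which can reduce prostaglandins, had 294 and 361 CPM. In macrophages 1 of 4 measured was higher: Ptgr1, the prostaglandin reductase that acts after Hpgd, with 39.5 CPM in the LPCAT3-AKO and 24.4 CPM in the control library, a ratio of 1.62 (1.46 to 1.79), where 1.42% of all genes were called higher. In epithelial cells 3 of 6 were higher, Akr1b3, an aldo-keto reductase with prostaglandin F synthase activity, among them at 332 and 107 CPM, where 7.19% of all genes and 11 of the 12 immediate-early genes were called higher. In mast cells 1 of 4 was lower, Cbr1, which had 0 UMIs in the LPCAT3-AKO library and 48.0 CPM in the control library (2.25% of all genes were called lower). The leukotriene branch lay in macrophages and dendritic cells, with the 5-lipoxygenase activating protein gene Alox5ap at 623 and 622 CPM in macrophages and 587 and 490 CPM in dendritic cells. Its 1 gene past the rule was Lta4h in dendritic cells, at 74.6 and 35.6 CPM, 1 of 2 measured there, where 5.51% of all genes were called higher. The soft dendritic gate and the macrophage list described for Tbxas1 apply to it as well.

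The genes whose levels over the 8 classes of both libraries were most like those of a member were found by Pearson correlation of log2(CPM + 1) over 16 points, among 10097 genes, as a description. The points of 1 library share its preparation and depth. Ptgis was closest to Fgf10, Bmper and Emx2 (each r = 0.97), Tbxas1 to Unc93b1 and Ticam2 (r = 0.96 each), and Hpgds to Camk2a and Espn (r = 0.96 each). Ptgs1 was closest to Pttg1ip (r = 0.95) and Ptgs2 to Ifi211 and Cpq (r = 0.91 each). Hpgd had the loosest match, with Daglb at r = 0.89.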

How the data were processed

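The authors deposited raw UMI counts per gene and barcode, as whole numbers. Their tools and build, per the submitters' processing notes, were Cell Ranger 6.1.2, Seurat 4.10 and mm10. The gene annotation release is not given in the sources used here. Where several identifiers shared a symbol, the one with the most UMIs over both libraries was kept (32285 genes, 32245 symbols). Barcodes with 500 or more genes and at most 10% mitochondrial UMIs were kept. Scrublet (scanpy 1.11.5) scored doublets per library, and the top 0.8% per 1000 kept cells were removed, 1088 LPCAT3-AKO and 1235 control cells.

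A marker counted at 2 or more UMIs, and a class asked for 3 (dendritic, mast, T, NK) to 6 (fibroblast) markers and a 2-fold lead over any other class. By this gate 573 LPCAT3-AKO and 434 control cells matched several classes and 579 and 644 none. Sub-gates asked for 3 markers and a 1.5-fold lead. Thresholds were set after the matrices had been seen. UMIs were summed per class and library. Intervals are exact Clopper-Pearson for shares of cells and exact binomial for ratios, and a count of 0 allows 3 counts. Log2 ratios use CPM + 1. With 1 library per genotype no p-value was computed. Named were all members, all receptors at 20 CPM or more in some class, up to 4 genes of each other list by highest level, and, chosen after their values were seen, further genes past the size rule. The members and lists were chosen with earlier results of these data known. The procedures were tested on simulated data. No genome or annotation was used.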

Additional observations from a re-analysis of the deposited data

Results flagged for a closer look

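Ptgs2 had opposite directions in different classes: the ratio of LPCAT3-AKO over control was 1.242 in dendritic cells and 0.7254 in fibroblasts, with counting intervals on either side of 1. In mast cells, where the ratio rests on 8 LPCAT3-AKO and 1 control UMI, it was 8.86, again against 0.7254 in fibroblasts. Tbxas1 had a ratio of 1.561 in dendritic cells and 0.9464 in macrophages. With 1 library per genotype, none of these differences between classes was tested. The dendritic Ptgs2 ratio was 0.557 under a stricter gate and 0.601 in dendritic cells under the class median of immediate-early genes, so its direction rests on which cells are taken.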

How the results depend on the processing

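No paired analysis was possible because each group has 1 library. The count of concentrated members was 3, and 2 (without Ptges) under the stricter gate and with each cell weighted alike. Of the 160 class levels, 132 stayed within their intervals under the stricter gate, 156 with doublets kept and 107 at 2000 UMIs per cell, where rare UMIs limit the precision. Of the 24 ratios, 24 stayed so under either pseudocount (0.1 or 5 CPM), 22 under the stricter gate and 14 in cells under the class median of immediate-early genes, and none of the ratios past the size rule turned in direction. With a level filter of 5 CPM the genes past the size rule numbered 340 in fibroblasts, 403 in macrophages, 696 in dendritic, 475 in endothelial and 1504 in epithelial cells, and with no filter 1319, 1079, 771, 489 and 1763, against 129, 122, 405, 280 and 870 at 20 CPM. Dendritic members past it were 2 (Hpgd and Tbxas1) at 5 CPM and 3 (also Ptgs1) with no filter, against 1. The stricter gate gave 462 genes in endothelial cells. With doublets kept, epithelial cells had 335 genes and 0 members past it, and mast cells 1 member, Hpgds, as they also had (1) without the cell filter. The cause of these shifts was not tested. For Ptgs2 in fibroblasts the log2 ratio was -0.46, with -0.50 when doublets were kept, -0.24 with sub-gates weighted alike and -0.17 in cells low in immediate-early genes. For Hpgds and Hpgd in macrophages it was 0.35 and 0.34, and 0.22 and 0.17 in such cells.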

Other observations

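Cells that matched several classes held 9.3% of all LPCAT3-AKO and 6.3% of all control Ptgs2 UMIs, and 15.2% and 10.2% of all Tbxas1 UMIs, at a median of 11613 and 10468.5 UMIs per cell. They entered no comparison.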
